A study of Rattus norvegicus with 12 samples.

Results

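The data described here are those of 6 genes for scaffold, kinase, membrane, enzyme and DNA-binding proteins, *Akap12*, *Sgk1*, *Myct1*, *Mthfd1l*, *Abhd2* and *Hivep2*. They were picked out because their signals were raised by angiotensin II (AngII) on these same arrays. How they were picked among the raised genes is not recorded. Each gene was matched by its symbol in the annotation of the array and had 1 probe set, so that 6 of the 23188 probe sets on the arrays are described, and all 6 were among the 14796 tested. Rat vascular smooth muscle cells (RVSMCs), primary cells from the thoracic aortas of male Sprague-Dawley rats used after a few passages in culture, were transfected for 48 h with 100 nM of a GapmeR, an oligonucleotide through which RNase H cuts the RNA it pairs with. The groups were *Alivec*Gap with AngII, NCGap with AngII, *Alivec*Gap with PBS and NCGap with PBS, each with 3 Clariom S rat arrays. *Alivec*Gap targets *Alivec*, a long non-coding RNA that AngII induces, NCGap (NGGap in the sample titles) is a non-targeting control, and AngII was given at 100 nM for 3 h or replaced by the same volume of PBS. All 4 groups had therefore been transfected, and only 1 GapmeR against *Alivec* was used. *Alivec* had no named probe set on these arrays, and its knockdown was not measured here.

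AngII acts on smooth muscle mainly through the AT1 receptor, a G protein-coupled receptor that raises calcium and activates protein kinase C, Src and the MAP kinases, and transcription of many genes follows within hours. *Akap12* encodes gravin (SSeCKS), a scaffold that holds protein kinase A, protein kinase C and other signaling proteins at the membrane and cytoskeleton. *Sgk1* encodes serum- and glucocorticoid-regulated kinase, a relative of AKT that is activated downstream of PI3-kinase and mTORC2 and acts on ion channels and transporters. *Myct1* encodes a membrane protein first described as a target of Myc and known from endothelial cells. *Mthfd1l* encodes the mitochondrial enzyme that makes formate from folate-bound one-carbon units, *Abhd2* a serine hydrolase that cleaves monoacylglycerols such as 2-AG, and *Hivep2* (schnurri-2) a large zinc finger protein that binds enhancers of the NF-kB type.

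RefSeq promoter windows (GRCr8, 250 bases before to 50 bases after a start) were found for all 6 genes, 8 windows in all, of which *Sgk1* had 3. They are shown because the 6 signals moved together with AngII, and they were searched on both strands for letters bound by factors known to act downstream of the AT1 receptor and for the core promoter box. The letters were TGAGTCA for AP-1, TGACGTCA for the cAMP response element (CRE), TGACG for the core of that element, GCGTGGGCG for EGR factors, the CArG box of the serum response factor by its name, and TATAAA for the TATA box. Any full CRE also holds the CRE core. In the windows printed here, those of the largest responses and of *Mthfd1l*, capitals mark a match (CGTCA is the CRE core on the other strand), the strand given is that of the gene, and the window of *Akap12* is shown as one without a match.
Sgk1, chr1:24804782-24805081, minus strand: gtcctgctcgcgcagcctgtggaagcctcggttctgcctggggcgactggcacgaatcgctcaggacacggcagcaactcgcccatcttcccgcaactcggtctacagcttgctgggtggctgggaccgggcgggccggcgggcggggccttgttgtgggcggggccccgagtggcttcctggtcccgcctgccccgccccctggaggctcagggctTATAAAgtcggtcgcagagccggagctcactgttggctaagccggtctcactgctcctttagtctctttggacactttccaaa
Sgk1, chr1:24805521-24805820, minus strand: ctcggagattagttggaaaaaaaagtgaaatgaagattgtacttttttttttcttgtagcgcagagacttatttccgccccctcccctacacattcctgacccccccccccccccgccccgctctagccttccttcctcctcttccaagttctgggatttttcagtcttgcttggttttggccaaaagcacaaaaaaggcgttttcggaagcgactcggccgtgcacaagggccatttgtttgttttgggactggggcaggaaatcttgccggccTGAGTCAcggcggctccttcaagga
Myct1, chr1:44423228-44423527, plus strand: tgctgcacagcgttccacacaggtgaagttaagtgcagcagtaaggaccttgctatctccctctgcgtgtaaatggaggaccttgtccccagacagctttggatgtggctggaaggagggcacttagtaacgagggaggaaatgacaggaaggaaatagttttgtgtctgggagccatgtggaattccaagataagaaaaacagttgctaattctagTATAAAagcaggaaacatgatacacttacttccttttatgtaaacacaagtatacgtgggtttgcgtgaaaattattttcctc
Mthfd1l, chr1:42849174-42849473, plus strand: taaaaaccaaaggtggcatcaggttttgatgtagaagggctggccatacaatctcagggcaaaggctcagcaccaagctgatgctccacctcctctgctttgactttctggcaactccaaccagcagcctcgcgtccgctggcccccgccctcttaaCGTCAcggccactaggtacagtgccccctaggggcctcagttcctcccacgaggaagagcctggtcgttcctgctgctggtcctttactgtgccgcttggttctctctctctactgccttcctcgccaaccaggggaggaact
Akap12, chr1:43135265-43135564, plus strand: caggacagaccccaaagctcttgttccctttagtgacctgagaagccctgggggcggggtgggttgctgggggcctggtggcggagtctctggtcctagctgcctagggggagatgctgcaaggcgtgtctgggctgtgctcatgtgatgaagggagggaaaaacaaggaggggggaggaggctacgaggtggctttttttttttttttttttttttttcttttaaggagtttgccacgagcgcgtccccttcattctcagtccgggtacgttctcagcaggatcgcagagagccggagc

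The TATA box was found in 3 of the 8 windows, which belong to 2 of the 6 genes. It was at bases -33 to -28 of *Myct1* and, in 2 of its 3 windows, of *Sgk1* (bases -33 to -28 and -55 to -50), counted from the start as base 0. It was in 14.2% of the 33469 windows of 300 bases in the table. The AP-1 letters were in 1 of the 8 windows, at bases 25 to 31 of the *Sgk1* window that had no TATA box, against 4.63% of all windows. The CRE core was in 2 of the 8 windows, those of *Mthfd1l* (bases -93 to -89) and *Abhd2* (bases -40 to -36), against 21.2% of all windows. The full CRE (1.83% of all windows), the EGR letters (0.544%) and the CArG box (1.64%) were in 0 of the 8 windows, and *Akap12* and *Hivep2* had no match to any of these letters. The windows also differed in composition, with 78.3% G and C for *Hivep2*, 43.7% for *Myct1* and 40.7% to 66% in the 3 windows of *Sgk1*. The median of all windows was 51.7%. A match is a description of these letters, and no match says only that they are not in this window.

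The deposited values are log2 signals that the authors normalized together by the Robust Multichip Average method. Medians of single arrays lay between 6.68 and 6.76, and arrays of a group correlated by 0.992 to 0.995. A log2 signal of 6, under which the study took a probe set as barely expressed, was reached on each array by 59.8% to 62.2% of probe sets. The labels call the replicates biological and the methods call them independent, and neither names the cultures or animals, so that p values reflect how far these arrays spread. All 10 smooth muscle markers had means of at least log2 6 in every group. Of the markers with a probe set, 10 of 14 of endothelial cells, 8 of 9 of leukocytes and 3 of 4 of Schwann cells were under 6 in every group, while 8 of 8 of adventitial fibroblasts were at least 6 in every group. The log2 of the summed signal of the fibroblast markers was 12.15 to 12.21 with *Alivec*Gap and AngII, 11.92 to 12.08 with NCGap and AngII, 12.31 to 12.38 with *Alivec*Gap and PBS and 12.20 to 12.24 with NCGap and PBS. It was thus higher with *Alivec*Gap for either treatment, but the single markers differed. The means of *Lum*, *Dcn*, *Mfap5* and *Pdgfra* were higher with *Alivec*Gap for both treatments. Those of *Col14a1* and *Serpinf1* were lower for both, and those of *Pi16* and *Gsn* differed by treatment. The part of the summed signal in the values of the 6 genes was not tested. For the smooth muscle markers it was 14.61 to 14.66, 14.70 to 14.72, 14.66 to 14.80 and 14.84 to 14.86 in the same order of groups, lower with *Alivec*Gap, which was not tested either.

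The first question was how far AngII raised the 6 genes with each GapmeR, and these values are a description with no test, because the rise with AngII is what chose the genes. *Sgk1* had log2 signals of 9.48, 9.44 and 9.61 with *Alivec*Gap and AngII and of 6.18, 6.15 and 6.36 with *Alivec*Gap and PBS. With NCGap it had 9.60, 9.60 and 9.86 with AngII and 5.65, 5.95 and 6.06 with PBS, the mean with PBS lying under log2 6. All AngII arrays were high and all PBS arrays close to log2 6, and the log2 response of this kinase was 3.28 with *Alivec*Gap and 3.80 with NCGap (standard error 0.112 each, n = 3 arrays per group). This was a 9.73-fold rise with *Alivec*Gap and a rise of at least 12.9-fold with NCGap, where the PBS mean was set to 6. In bulk RNA of a culture, a change in the number of cells of a kind and a change in the RNA of each cell cannot be told apart.

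*Akap12* had log2 signals of 10.77, 11.05 and 11.01 with *Alivec*Gap and AngII and of 7.57, 8.14 and 8.02 with *Alivec*Gap and PBS. With NCGap the scaffold had 11.09, 10.98 and 11.04 with AngII and 7.61, 7.89 and 7.97 with PBS. The AngII arrays lay far above the PBS arrays with either GapmeR, and replicate 1 was the lowest of the *Alivec*Gap arrays in both. The rise was 8.17-fold with *Alivec*Gap and 9.27-fold with NCGap, a log2 response of 3.03 and of 3.21 (standard error 0.140 each). *Myct1* had 9.53, 9.67 and 9.83 with *Alivec*Gap and AngII and 6.97, 6.46 and 6.54 with *Alivec*Gap and PBS, an 8.08-fold rise. With NCGap it had 9.66, 9.56 and 9.87 with AngII and 6.31, 5.90 and 6.62 with PBS, a 10.7-fold rise. The log2 response was 3.01 with *Alivec*Gap and 3.42 with NCGap (standard error 0.175 each). The AngII arrays of this membrane protein again lay above every PBS array, and its PBS arrays were close to log2 6 and spread more widely (SD 0.273 with *Alivec*Gap and 0.360 with NCGap) than its AngII arrays (SD 0.150 and 0.156). *Myct1* is known from endothelial cells, and of the 14 endothelial markers with a probe set 10 were under log2 6 in all 4 groups, among them *Pecam1* and *Cdh5*, while *Esam*, *Cldn5* and *Plvap* were at least 6 in all 4. The log2 of the summed signal of the 14 was 9.53 to 9.76 with *Alivec*Gap and AngII, 9.48 to 9.69 with NCGap and AngII, 9.42 to 9.58 with *Alivec*Gap and PBS and 9.47 to 9.65 with NCGap and PBS, so that the groups overlapped. For *Pecam1* the means were 4.40 with *Alivec*Gap and AngII, 4.40 with NCGap and AngII, 4.47 with *Alivec*Gap and PBS and 4.58 with NCGap and PBS.

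The other 3 genes had smaller log2 responses, from 0.60 to 1.32. *Mthfd1l* had log2 signals of 6.76, 6.83 and 6.97 with *Alivec*Gap and AngII and of 5.90, 5.96 and 6.01 with *Alivec*Gap and PBS. With NCGap the folate enzyme had 7.16, 7.13 and 7.06 with AngII and 6.07, 5.70 and 5.61 with PBS. Both PBS means were under log2 6, and the rise was therefore at least 1.80-fold with *Alivec*Gap and at least 2.17-fold with NCGap, with measured log2 responses of 0.89 and 1.32 (standard error 0.107 each). *Hivep2* had 9.46, 9.58 and 9.64 with *Alivec*Gap and AngII and 8.44, 8.41 and 8.56 with *Alivec*Gap and PBS, a 2.13-fold rise. With NCGap it had 9.76, 9.56 and 9.78 with AngII and 8.57, 8.25 and 8.69 with PBS, a 2.29-fold rise. Its log2 response was 1.09 with *Alivec*Gap and 1.19 with NCGap (standard error 0.109 each), and replicate 2 was the lowest of its NCGap arrays with both treatments. *Abhd2* had 9.62, 9.58 and 9.57 with *Alivec*Gap and AngII and 8.96, 9.01 and 9.02 with *Alivec*Gap and PBS, a 1.51-fold rise. With NCGap the hydrolase had 9.68, 9.62 and 9.74 with AngII and 8.86, 8.73 and 9.00 with PBS, a 1.77-fold rise. The log2 response of *Abhd2*, 0.60 with *Alivec*Gap and 0.82 with NCGap (standard error 0.0736 each), was the smallest of the 6. The AngII and PBS arrays did not overlap with either GapmeR for any of the 6 genes, as was the case, in the direction of a rise, for 16.9% of tested probe sets with *Alivec*Gap and for 17% with NCGap. Nothing is read from this count, since the genes were chosen for their rise.

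**Figure D1:**
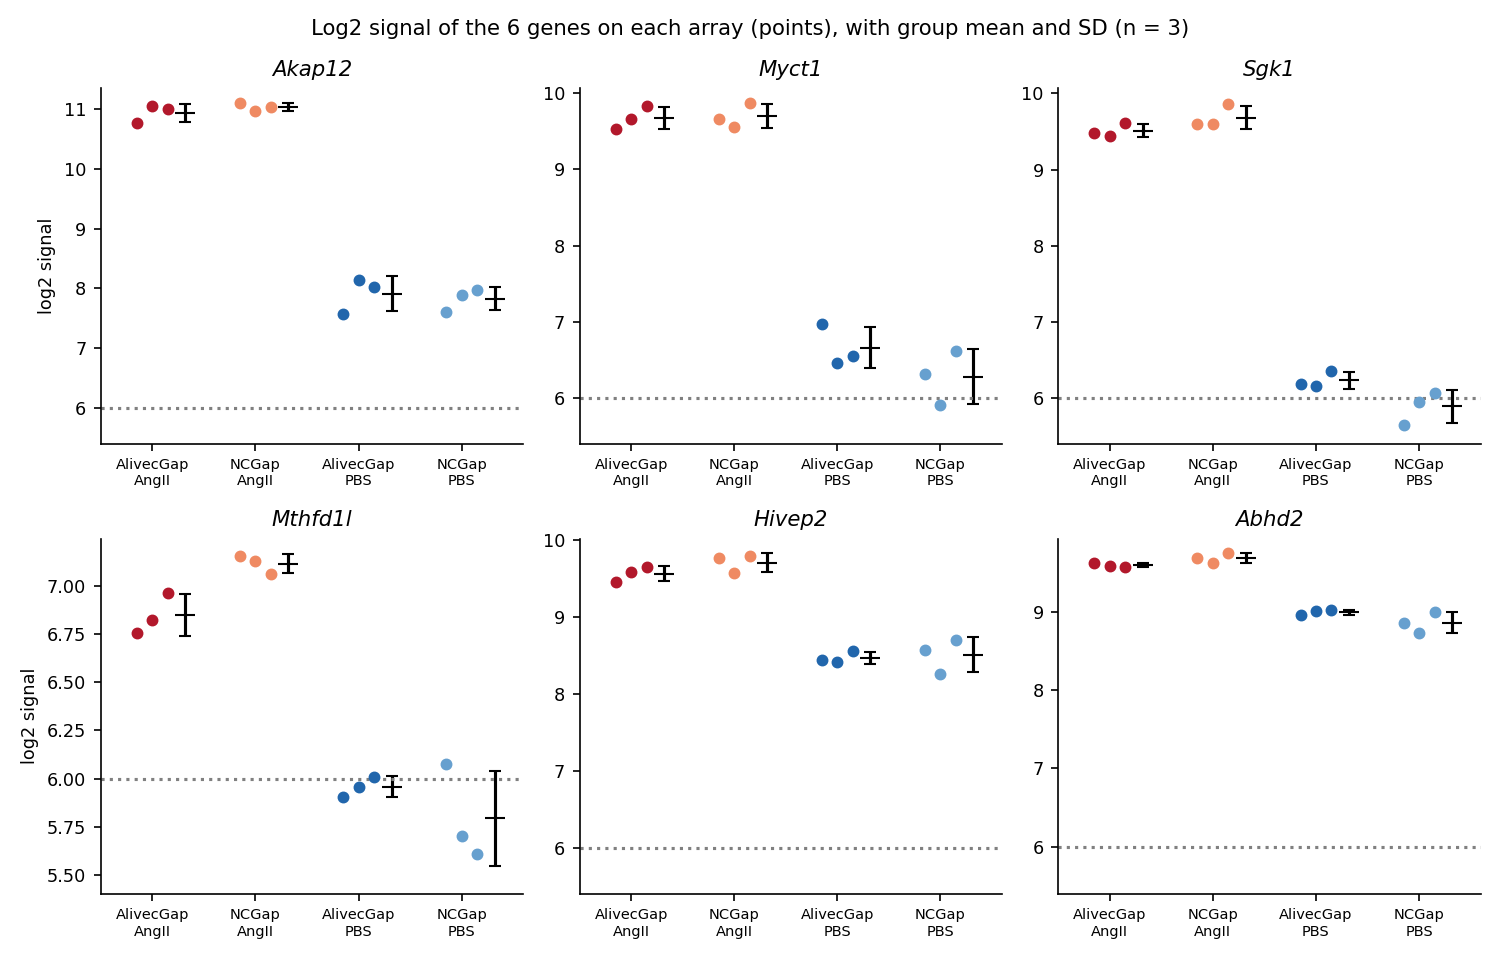
The log2 signal (vertical axis) of *Akap12*, *Myct1*, *Sgk1*, *Mthfd1l*, *Hivep2* and *Abhd2* on each array is shown as a point, with the group mean and SD (n = 3) beside the points and a dotted line at log2 6, with a vertical axis of its own in each panel. The AngII arrays lie above the PBS arrays in every panel, and *Sgk1*, *Myct1* and *Mthfd1l* have PBS arrays under the line.

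The genes chosen were not the 6 with the largest rise. Of the 14796 tested probe sets, *Myct1* ranked 11th by the log2 response with *Alivec*Gap and 11th with NCGap, *Akap12* 10th and 14th, *Hivep2* 189th and 202nd, and *Abhd2* 539th and 407th. The responses of *Sgk1* and *Mthfd1l* with NCGap are only bounded, since their PBS means were under log2 6, and they are not ranked. At least as large a rise as that of *Abhd2*, at an adjusted p under 0.05 with NCGap, was found for 322 named genes. All 6 genes chosen lie on rat chromosome 1, which holds 37 of these 322 genes (11.5%) and 13.0% of the tested named genes. Nothing is read from the shared chromosome, since how the genes were picked is not recorded.

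The study asked whether *Alivec* acts on genes induced by AngII, and the next comparison was therefore of the 2 responses. On the log2 scale the share of the response kept with *Alivec*Gap was 0.943 for *Akap12*, 0.915 for *Hivep2*, 0.881 for *Myct1*, 0.864 for *Sgk1*, 0.726 for *Abhd2* and 0.675 for *Mthfd1l*. With group means under log2 6 set to 6, the shares of *Sgk1* and *Mthfd1l* were 0.891 and 0.761, and those of the other genes did not change by construction. The response with *Alivec*Gap minus that with NCGap was -0.51 for *Sgk1* (standard error 0.159), -0.43 for *Mthfd1l* (standard error 0.151), -0.41 for *Myct1* (standard error 0.247), -0.22 for *Abhd2* (standard error 0.104), -0.18 for *Akap12* (standard error 0.198) and -0.10 for *Hivep2* (standard error 0.154). For *Akap12* and *Hivep2* the difference was smaller than its standard error, and without NCGap PBS replicate 2 the share of *Hivep2* was 1.02. The differences of *Sgk1* and *Mthfd1l* include PBS means under log2 6 and are measured values, not bounds. All of these differences share their arrays with the choice of the genes and are given without a test. Over all 14796 probe sets, the difference of the responses passed an adjusted p under 0.05 for 0 (0%) in limma and the thresholds of the study (1.2-fold in either direction with an unadjusted p under 0.05) for 692 (4.68%).

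All 6 responses were smaller with *Alivec*Gap, and their median share was 0.873. Of the 621 tested probe sets that AngII raised 1.5-fold or more on average over the GapmeRs, 76.8% had a smaller response with *Alivec*Gap, and the median share was 0.884, with quartiles of 0.781 and 0.986. *Abhd2* and *Mthfd1l* lay below the lower quartile and the other 4 genes within the quartiles, and *Mthfd1l* at 0.761 remained below the lower quartile of the unadjusted shares with its low means set to 6. The median of the 6 genes was thus close to that of raised probe sets in general, and nothing particular to them is read from it.

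**Figure D2:**
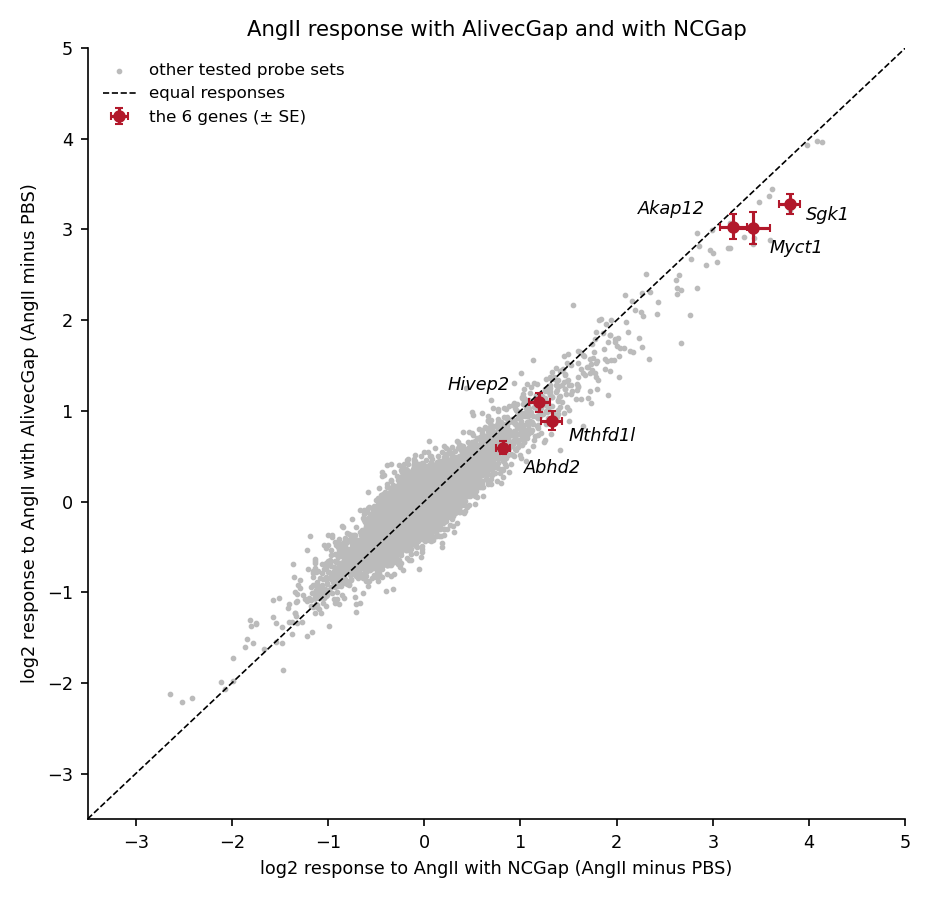
The log2 response to AngII (AngII minus PBS) with *Alivec*Gap (vertical axis) is plotted against that with NCGap (horizontal axis) for the tested probe sets in grey and for the 6 genes in red with standard errors. The broken line marks equal responses, and all 6 genes lie below it, *Sgk1* by 0.51 and *Hivep2* by 0.10 on the log2 scale. Measured values are plotted, and the PBS means of *Sgk1* with NCGap and of *Mthfd1l* with both GapmeRs were under log2 6.

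A smaller response can come from a lower signal with AngII, a higher signal with PBS, or both, and the genes differed in this. For *Sgk1*, *Alivec*Gap minus NCGap was -0.17 with AngII and 0.34 with PBS, where the NCGap mean was under log2 6. For *Myct1* the values were -0.02 and 0.38, so that nearly the whole of the difference lay in the PBS arrays. For *Akap12* they were -0.09 and 0.09 and for *Abhd2* -0.09 and 0.13, similar in size with both treatments. For *Mthfd1l* the value was -0.27 with AngII, while both means with PBS were under log2 6 and gave no difference that could be read (measured values 0.16 apart). For *Hivep2* both values were below 0, -0.14 with AngII and -0.04 with PBS. The 6 values with AngII ran from -0.27 to -0.02, with a median of -0.12, where the median of all tested probe sets was 0.00375. With PBS they ran from -0.04 to 0.38, with a median of 0.15 over the measured values, those under log2 6 included, where that of all tested probe sets was 0.00263. The NCGap arrays of each comparison may also have entered the choice of the genes. Such a choice would favour high NCGap signals with AngII and low ones with PBS.

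In the knockdown comparisons themselves, 0 of the 6 genes passed an adjusted p under 0.05 over all tested probe sets in limma, with AngII (adjusted p 0.349 to 0.977, against 0.818% of probe sets called) or with PBS (adjusted p 0.290 to 0.943, against 0.399% called). An unadjusted p under 0.05 was found only for the genes that also passed the thresholds of the study, which are given below with the share of all probe sets. At the thresholds of the study, *Mthfd1l* was lower with *Alivec*Gap and AngII (0.831 of the level with NCGap, unadjusted p = 0.0277 and adjusted p = 0.349 from limma), against 3.24% of probe sets lower and 6.1% of probe sets past these thresholds in either direction. Its 3 *Alivec*Gap arrays, 6.76 to 6.97, lay below its 3 NCGap arrays, 7.06 to 7.16. The call ended without *Alivec*Gap AngII replicate 1 (log2 difference -0.22) or 2 (-0.26) or NCGap AngII replicate 1 (-0.25) or 2 (-0.26). *Abhd2* was the other gene whose *Alivec*Gap arrays (9.57 to 9.62) lay below the NCGap arrays (9.62 to 9.74) with AngII, by a gap of 0.00234, and it did not pass either threshold (adjusted p = 0.719 from limma). Such groups without overlap, in the lower direction, were found for 9.65% of probe sets. The *Alivec*Gap and NCGap arrays of *Akap12*, *Myct1*, *Sgk1* and *Hivep2* overlapped with AngII.

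With PBS, *Sgk1* and *Myct1* were higher with *Alivec*Gap at the thresholds of the study, against 2.24% of probe sets higher and 4.93% past them in either direction. *Sgk1* had an unadjusted p of 0.0100 and an adjusted p of 0.290 from limma, and its *Alivec*Gap arrays (6.15 to 6.36) lay above its NCGap arrays (5.65 to 6.06), which holds in the higher direction for 6.91% of probe sets. Its mean with NCGap was under log2 6, and the fold was at least 1.17, which is under the 1.2 of the study. Without NCGap PBS replicate 1 its log2 difference was 0.22, against 0.34 with all arrays, and no longer passed. *Myct1* was 1.30-fold higher (unadjusted p = 0.0489, adjusted p = 0.517 from limma), but its arrays overlapped, and the call ended whichever array was left out, other than *Alivec*Gap PBS replicate 2 or NCGap PBS replicate 3. The log2 difference of *Myct1* was 0.23 without *Alivec*Gap PBS replicate 1 and 0.20 without NCGap PBS replicate 2, against 0.38 with all arrays. Both means of *Mthfd1l* with PBS were under log2 6, and its knockdown difference with PBS is therefore not read as a change in any of these fits. The mean of the 2 knockdown comparisons does not depend on any AngII response, so a choice by the AngII response alone would not have used it. Whether the choice used anything else is not recorded. In this mean 0 of the 6 genes passed either threshold, and the lowest unadjusted p was 0.171 from limma, for *Myct1*. The adjusted p was 0.572 to 0.993 from limma, where 2.73% of all probe sets passed by adjusted p and 3.91% at the thresholds of the study. Without NCGap PBS replicate 3, *Myct1* passed the thresholds of the study (log2 difference 0.27). The log2 differences ran from -0.09 for *Hivep2* to 0.18 for *Myct1*, with 3 below and 3 above 0. That of *Mthfd1l* (-0.05), among those below 0, includes its PBS means under log2 6 and is a measured value only.

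**Figure D3:**
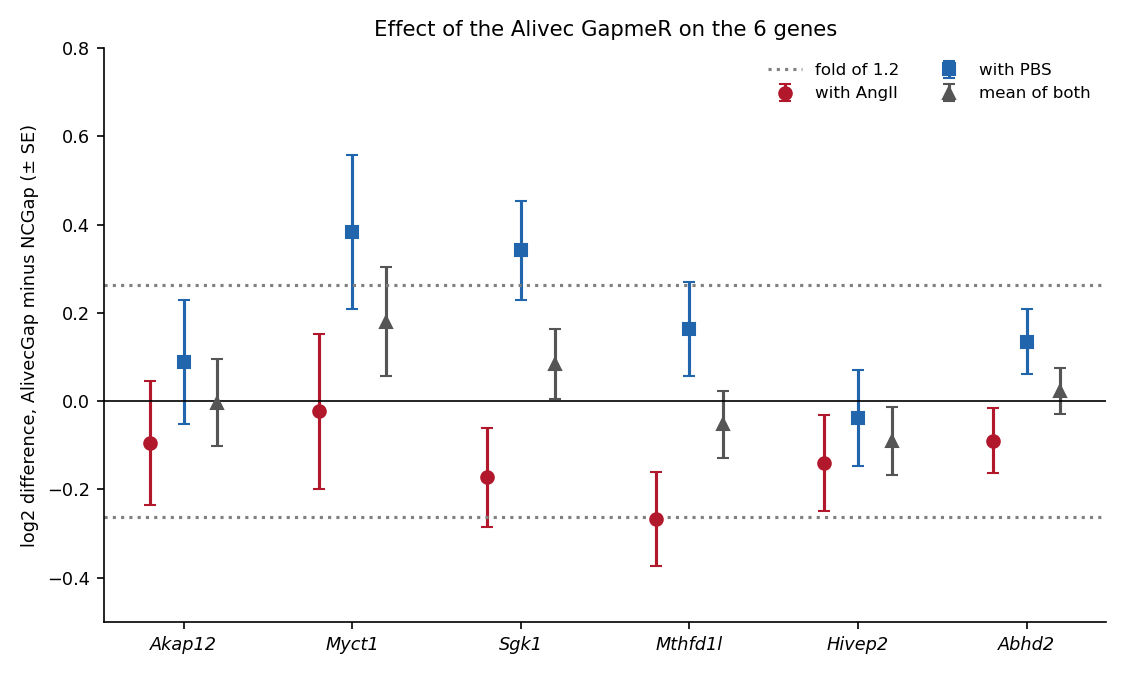
The log2 difference of *Alivec*Gap minus NCGap with its standard error (vertical axis) is shown for each of the 6 genes with AngII (circles), with PBS (squares) and in the mean of both (triangles), with dotted lines at a fold of 1.2. The values with AngII lie between -0.27 and -0.02 and those with PBS between -0.04 and 0.38, while those of the mean of both lie within the dotted lines.

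The group means of *Akap12*, *Myct1*, *Sgk1* and *Abhd2* were highest with NCGap and AngII, followed by *Alivec*Gap with AngII. Next came *Alivec*Gap with PBS and then NCGap with PBS. For *Hivep2* the PBS groups changed places. *Mthfd1l* had the same order with AngII, and its PBS means, both under log2 6, are not ordered. How many tested probe sets had NCGap highest with AngII and lowest with PBS was not counted. How the genes were picked is not recorded, and a choice by the rise with NCGap would favour this order. The step between the AngII and the PBS groups was without overlap in all 6 genes. Within a treatment, neighbouring groups overlapped for *Akap12*, *Myct1* and *Hivep2*, whereas *Sgk1* was separated with PBS and *Mthfd1l* and *Abhd2* with AngII. Over the 12 arrays the Pearson correlation between the 6 genes was 0.954 to 0.994 (15 pairs), which follows from the rise with AngII that they share. For deviations from the group means it was -0.571 to 0.799, with a median of 0.223.

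The genes whose pattern over the 12 arrays was most like each of the 6 were found by the same correlation, given as a description. Nearest to *Akap12* were *Mthfd2* (r = 0.997), the mitochondrial folate dehydrogenase, *Ptpn1* (r = 0.996), a tyrosine phosphatase, and *Hmga1* (r = 0.996), a chromatin protein. Nearest to *Sgk1* were *Avpr1a* (r = 0.997), the vasopressin V1a receptor, *Stard13* (r = 0.996) and *Rgs2* (r = 0.996), a regulator of G protein signaling. Nearest to *Myct1* were the sialyltransferase *St3gal4* (r = 0.995), the nuclear receptor *Nr4a1* (r = 0.995) and *Inhba* (r = 0.995), the beta A subunit of inhibin and activin. *Mthfd1l* was followed by *Upp1* (r = 0.986), uridine phosphorylase, *Gtpbp4* (r = 0.984), a GTPase of ribosome assembly, and *Tgif1* (r = 0.981), a homeobox repressor. *Hivep2* was followed by the kinase *Map2k3* (r = 0.995), *Rai14* (r = 0.993), an actin-binding protein, and *Glb1l2* (r = 0.992), a beta-galactosidase-like gene, and *Abhd2* by *Msmo1* (r = 0.991), an enzyme of cholesterol synthesis, *Tmem120a* (r = 0.991) and the phosphatase *Dusp10* (r = 0.990). The arrays of a treatment share the response to AngII, so that these values mainly rank genes by how steadily they rose. *Inhba*, like *Myct1*, had a higher mean with *Alivec*Gap and PBS (log2 9.50) than with NCGap and PBS (log2 9.17).

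The families and pathways around the 6 genes were then examined with lists that leave the 6 genes themselves out. Of 122 tested relatives, 32 rose and 25 fell with AngII and NCGap at an adjusted p under 0.05 from limma, against 13.3% of all tested probe sets that rose and 17.9% that fell (31.2% in either direction). The relatives are named genes counted once each, while only 10191 of the 14796 tested probe sets had 1 gene name, so that unlike sets are compared. The median log2 response of the relatives was -0.02, where that of all tested probe sets was -0.05. With AngII and *Alivec*Gap, 29 of them rose and 25 fell, against 10.8% and 15.6% of all tested probe sets (26.3% in either direction).

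Among folate and one-carbon enzymes, the relatives of *Mthfd1l*, 10 of 27 rose and 3 fell with NCGap, with a median log2 response of 0.07. *Mthfd2* rose 2.28-fold (log2 1.19, standard error 0.0697, adjusted p = 1.14e-07 from limma), with means of 8.90 with NCGap and AngII and 7.71 with NCGap and PBS, and the serine synthesis enzymes *Psat1* and *Psph* rose by 0.97 (adjusted p = 1.01e-04 from limma) and 0.77 (adjusted p = 1.04e-05 from limma) on the log2 scale. *Tyms*, thymidylate synthase, fell by 0.70 (adjusted p = 2.01e-05 from limma). *Shmt2*, the mitochondrial serine hydroxymethyltransferase, rose by 0.61 (adjusted p = 0.00291 from limma). The HIVEP family had 2 tested genes beside *Hivep2*, of which *Hivep3* rose 5.36-fold (log2 2.42, standard error 0.0979, adjusted p = 4.53e-09 from limma), a larger response than that of *Hivep2*, while *Hivep1* had a log2 difference of 0.14 (adjusted p = 0.145 from limma). With *Alivec*Gap, AngII raised *Hivep3* by 2.07 and *Hivep1* by 0.36 on the log2 scale.

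Of the AKAP family, scaffolds that bind protein kinase A as does *Akap12*, 3 of 11 rose and 4 fell. *Pakap* rose by 0.70 (adjusted p = 1.35e-04 from limma) and *Akap6* by 0.71 (adjusted p = 0.00114 from limma), while *Akap5* fell by 1.38 (adjusted p = 1.36e-04 from limma) and *Akap8l* by 0.44 (adjusted p = 0.00119 from limma). The family thus had called members in both directions. Of the kinases of the PKA and PKC families with the PKA inhibitors and protein kinases D, 2 of 14 rose and 4 fell. The regulatory subunits *Prkar2a* and *Prkar2b* rose by 0.48 and 0.35, and the inhibitor *Pkia* and the kinase *Prkd2* fell by 0.56 and 1.03 on the log2 scale.

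Around *Sgk1*, 6 of 17 kinases and activators rose and 3 fell. The PI3-kinase subunits *Pik3cb* and *Pik3r1* rose by 0.48 and 0.53, *Nr3c2*, the mineralocorticoid receptor, rose by 0.69 (adjusted p = 9.84e-04 from limma), and *Nr3c1*, the glucocorticoid receptor, fell by 0.54 (adjusted p = 5.85e-04 from limma). Of 17 substrates and effectors of the kinase, 5 rose and 4 fell. *Atp1b1*, the beta subunit of the sodium pump, rose by 1.17 (adjusted p = 1.72e-04 from limma), and its mean with NCGap and PBS was under log2 6. *Foxo1* fell by 0.72 and *Ndrg2* by 0.73, and *Slc9a3*, a sodium-proton exchanger, fell to a mean of 5.58 with AngII, against 7.07 with PBS. Of the other members of the ABHD family, 1 of 16 rose and 5 fell, with *Abhd17c*, which removes palmitate from proteins, lower by 0.50 (adjusted p = 4.00e-04 from limma). *Abhd4*, *Abhd14b* and *Abhd8* also fell, by 0.36, 0.35 and 0.51 (adjusted p 0.00132 to 0.0125 from limma). Of 9 genes of 2-AG and monoacylglycerol metabolism, 0 rose and 2 fell, the lipases *Mgll* by 0.86 (adjusted p = 2.33e-05 from limma) and *Abhd6* by 0.65 (adjusted p = 0.0153 from limma). *Napepld*, which makes N-acylethanolamines, had a log2 difference of -0.38 (adjusted p = 0.0888) and the cannabinoid receptor *Cnr2* of -0.17 (adjusted p = 0.232), neither past the threshold. Of 11 genes of the Myc network, 4 rose and 1 fell, with *Myc* higher by 1.00 (adjusted p = 7.10e-05 from limma), *Mycl* higher by 0.88 (adjusted p = 1.94e-05 from limma) and 2 Myc antagonists called in opposite directions. *Mnt* rose by 0.40 (adjusted p = 0.00370 from limma), and *Mxi1* fell to a mean of 5.87 with AngII, against 6.58 with PBS (adjusted p = 0.00377 from limma).

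**Figure D4:**
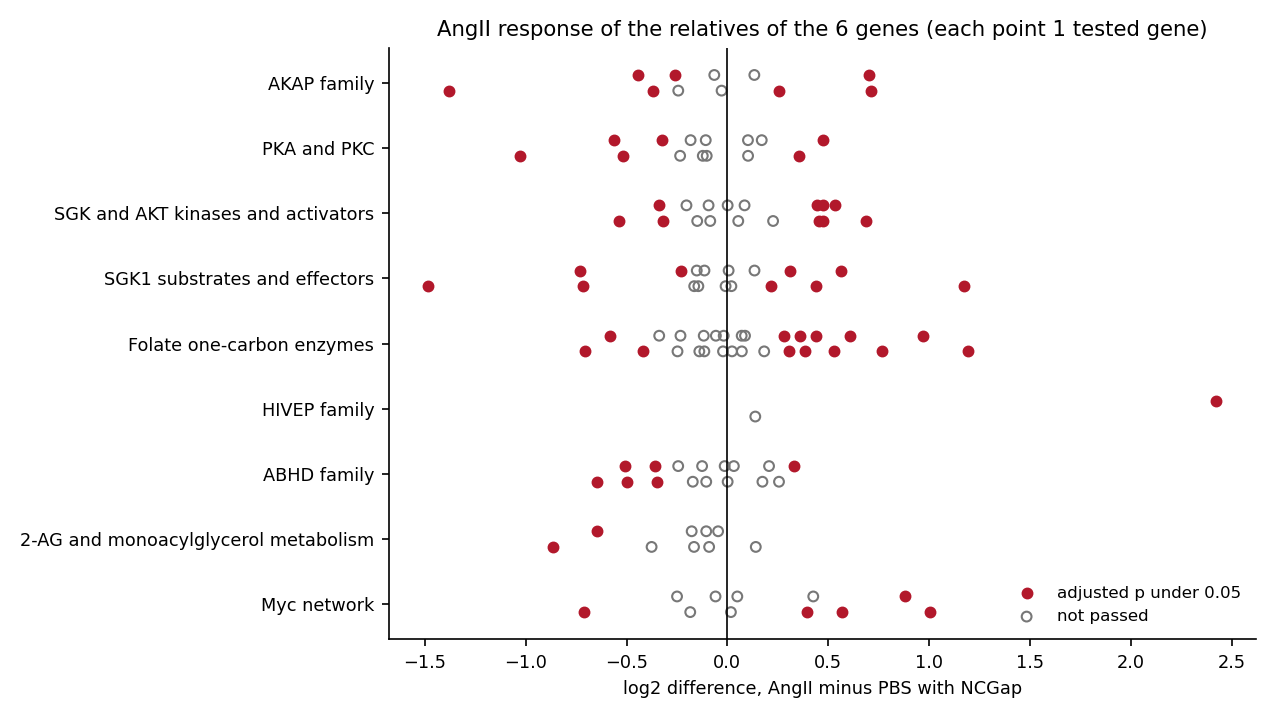
Each point is 1 tested relative of the 6 genes, placed by its log2 difference of AngII minus PBS with NCGap (horizontal axis) within its list (vertical axis), and filled points passed an adjusted p under 0.05 from limma. The point farthest to the right is *Hivep3* at 2.42, and the filled points of 2-AG and monoacylglycerol metabolism, 2 of 9, lie below 0.

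With *Alivec*Gap against NCGap and AngII, 5 of the 122 relatives were higher and 6 lower at the thresholds of the study, against 2.86% and 3.24% of all tested probe sets. The lowest adjusted p of these belonged to *Hsd11b1*, which regenerates active glucocorticoids and was higher by 0.71 (adjusted p = 0.0554 from limma), followed by *Mycn*, higher by 0.71, and *Aldh1l2*, a mitochondrial folate enzyme, lower by 0.33 (adjusted p = 0.0593 each from limma), so that none passed by adjusted p. *Pik3cb* was lower by 0.29 (adjusted p = 0.0636 from limma), *Nr3c2* by 0.38 (adjusted p = 0.225) and *Akap6* by 0.44 (adjusted p = 0.174) on the log2 scale, and *Akap5* and *Atp1b1* were higher by 0.46 (adjusted p = 0.350) and 0.45 (adjusted p = 0.293). The other 3 were *Slc25a32* and *Mxd1*, lower by 0.30 and 0.29, and *Abhd17a*, higher by 0.37. All relatives called in this comparison are named here, and they were added after their values were seen. The number of higher relatives was 8 without *Alivec*Gap AngII replicate 1 and 3 without NCGap AngII replicate 2.

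The genes beside the 6 on chromosome 1 were taken from the gene order of RefSeq in GRCr8, 5 tested genes on each side with the 6 genes themselves left out. *Mthfd1l* and *Akap12* are next to each other among tested genes and share their neighbours, and *Myct1* lies a few genes further on. Of 44 different neighbours, 9 rose and 8 fell with AngII and NCGap at an adjusted p under 0.05 from limma, or 38.6% against the 31.2% of all tested probe sets, and their median log2 response was -0.03. The neighbours are named genes counted once each, which the set of all tested probe sets is not. The number of neighbours that fell was 5 without NCGap PBS replicate 3. *Ppp1r14c*, an inhibitor of protein phosphatase 1, rose by 1.58 (adjusted p = 6.82e-07 from limma) near *Mthfd1l* and *Akap12*, and *Rgs17*, a regulator of G protein signaling, rose by 1.02 (adjusted p = 2.80e-06) near *Myct1*. *Armt1*, between *Akap12* and *Myct1*, fell to a mean of 5.36 with AngII and NCGap, under log2 6, against 6.32 with PBS and NCGap (adjusted p = 8.14e-06). These neighbours were picked for this text after their values were seen. Of 10 neighbours each, *Abhd2* had 4 that rose and 1 that fell, *Myct1* 3 and 2, *Akap12* and *Mthfd1l* 2 and 3, *Sgk1* 1 and 2, and *Hivep2* 0 and 2.

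*Abhd2* lies near *Acan*, the aggrecan gene beside which *Alivec* is transcribed, with 2 protein-coding genes, *Hapln3* and *Mfge8*, between them. *Acan* rose with AngII by 1.87 on the log2 scale with *Alivec*Gap and by 2.12 with NCGap (adjusted p = 3.49e-08 and 9.39e-09 from limma). The response of *Abhd2* was 0.60 with *Alivec*Gap and 0.82 with NCGap. The response was smaller with *Alivec*Gap for both genes, as it was for 76.8% of the 621 tested probe sets raised 1.5-fold or more. Nothing particular to these genes is read from it. Beyond *Acan*, *Isg20* and *Aen* rose by 0.55 and 0.62 with NCGap (adjusted p = 9.79e-04 and 2.68e-05 from limma). The genes between them had log2 differences with NCGap of 0.26 for *Hapln3*, a link protein of hyaluronan whose mean with PBS was under log2 6 (adjusted p = 0.209 from limma), and 0.02 for *Mfge8*, a secreted glycoprotein of the vessel wall (adjusted p = 0.845 from limma). With AngII, the log2 difference of *Alivec*Gap against NCGap was -0.27 for *Acan* (adjusted p = 0.259 from limma). *Acan* was thus lower at the thresholds of the study, as were 3.24% of tested probe sets, but did not pass by adjusted p. The paper also reported it lower after knockdown by RT-qPCR. The difference was -0.09 for *Abhd2* (adjusted p = 0.719), 0.03 for *Hapln3* (adjusted p = 0.971) and -0.02 for *Mfge8* (adjusted p = 0.940, limma).

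**Figure D5:**
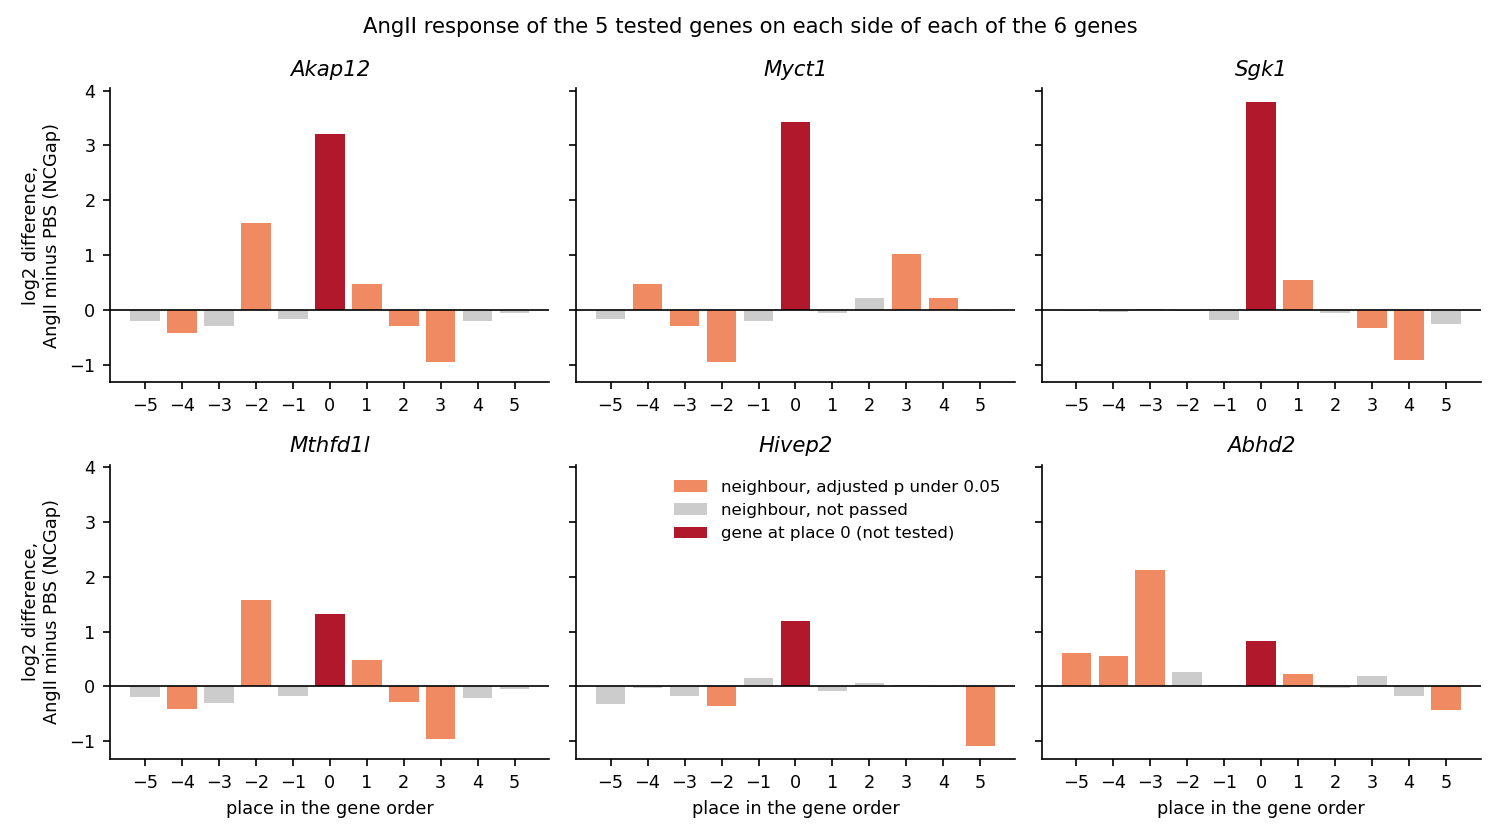
Bars give the log2 difference of AngII minus PBS with NCGap (vertical axis) for each of the 6 genes at place 0 and for the 5 tested genes on each side in the gene order (horizontal axis), red at place 0, orange where a neighbour passed an adjusted p under 0.05 from limma and grey where it did not. In the panel of *Abhd2* the bar at place -3 is *Acan* at 2.12, and in those of *Akap12* and *Mthfd1l* the bar at place -2 is *Ppp1r14c* at 1.58.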

How the data were processed

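RNA from RVSMCs in 4 groups of 3 Clariom S rat arrays was used. Per the labels and the methods, the authors imported CEL files into Partek Genomics Suite and normalized them with the Robust Multichip Average method, and the deposited values are log2 signals per probe set. How Partek set background and summary, and the build, was not given in the sources used here. Raw intensities were not used, so every alternative normalization started from these values.

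Gene names came from the platform annotation, updated by gene identifier with the RefSeq table of GRCr8 (15049 of 23188 probe sets named). That table gave only names, chromosomes and the order of genes, and coordinates are those of the RefSeq promoter table. Probe sets reaching log2 6 on 3 or more of the 12 arrays were tested. limma 3.58.1 in R 4.3.3 was fitted to 4 group means with eBayes moderation (4.08 prior degrees of freedom), with Benjamini-Hochberg adjustment over all 14796 probe sets, and the test was checked on simulated data. The study used Partek's analysis of variance, the terms of which were not given in the sources used here. The number of arrays limits the precision.

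The 6 genes and the lists were chosen with earlier results of these data known, and the lists were written from general knowledge. The named genes are the 6 genes, the 3 genes most correlated with each, the 4 relatives a list with the lowest p for AngII with NCGap, and the genes up to *Acan*. *Shmt2*, the neighbours and the relatives named for their knockdown difference were added after their values were seen. A gene with several probe sets was given by that with the highest mean signal. A group mean under log2 6 was set to 6 and the fold given as a bound. The alternatives were tests without moderation, with only the groups compared, a prior that follows the signal, other filters, arrays quantile normalized again or centred, the replicate number as a block, array weights and leaving out each array.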

Additional observations from a re-analysis of the deposited data

How the results depend on the processing

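The median log2 response of the 6 genes was 1.97 to 2.12 with *Alivec*Gap and 2.24 to 2.29 with NCGap with an array left out. The median share kept was 0.842 to 0.895 with an array left out and 0.859 to 0.886 under the other settings. For single genes the share of *Hivep2* was 1.02 without NCGap PBS replicate 2, so that its response was then larger with *Alivec*Gap, and the shares of the other 5 genes were under 1 in all settings run. At the thresholds of the study, the number of the 6 genes called with AngII was 0 with a prior that follows the signal, and 0 to 1 with an array left out. The call of *Mthfd1l* ended without NCGap AngII replicate 1 or 2 or *Alivec*Gap AngII replicate 1 or 2. With PBS the number called was 1 without moderation, with only the groups compared and without a filter on low signal, where *Myct1* no longer passed, and 1 to 2 with an array left out. The call of *Sgk1* ended without NCGap PBS replicate 1. The gene then counted was *Mthfd1l* (log2 difference 0.30), which is not read as a change, since both its PBS means were under log2 6. In the mean of both treatments it was 0 to 1, the 1 being *Myct1* (log2 difference 0.27) without NCGap PBS replicate 3. Of the relatives called higher with *Alivec*Gap and AngII, the number was 3 to 8 with an array left out. Of the neighbours, the number that fell with AngII was 5 with centred arrays and 5 to 10 with an array left out, 5 without NCGap PBS replicate 3. Whether the replicate numbers pair the arrays is not stated in the labels and was not tested. The deviations of same-numbered arrays correlated by -0.0938 to 0.323, over 0.1 in 9 of 18 pairs. Of the 12 arrays, 7 correlated best with an array of their own number. The main fits took the arrays as unpaired. With the replicate block the median share was 0.873, and the calls of all probe sets at an adjusted p under 0.05 were 160 with AngII and 76 with PBS, against 121 and 59 without it. The test with only the groups compared could not be run for the mean of both treatments, which needs all 4 groups.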
